A study of Mus musculus with 12 samples.

Results

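Semaphorins are guidance ligands, and plexins and neuropilins are their receptors. By symbol, 34 of the 46072 genes in the authors' deposited table belong to this group, called the family here. They were taken as the genes whose symbol begins with Sema and a digit or with Plxn, together with Nrp1 and Nrp2. They comprised 20 semaphorins, 9 plexins, 2 neuropilins and 3 antisense transcripts of Plxna4. The symbols alone set membership. RNA sequencing had been done on myeloid cells differentiated in culture from marrow of C57BL/6J mice that were 6 to 8 weeks old. Osteoclasts, which resorb bone and hold many nuclei, received RANKL (50 ng/ml) together with M-CSF (30 ng/ml). Immature dendritic cells were grown with GM-CSF (20 ng/ml), and macrophages with M-CSF alone (30 ng/ml). Precursors of the osteoclasts and macrophages were first expanded in M-CSF (100 ng/ml) for 5 days, and differentiation took 8 to 10 days in all 3 cell types. Accutase was used on the osteoclast cultures to take away cells with a single nucleus. Each cell type had 4 libraries, 12 in all, from 4 experiments in which the 3 cell types came from the same mouse.

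Semaphorins bind plexins directly or, for most of the secreted class 3 members, through a neuropilin that is bound to a plexin. Plexins signal inside the cell through a GTPase-activating domain for small GTPases of the Ras and Rap family and so change adhesion and the cytoskeleton. In bone, Sema4d made by osteoclasts is known in mice to restrain osteoblasts through Plxnb1, and Plxna1 with Trem2 and Tyrobp is known to take part in osteoclast formation. In the immune system, Sema4a on dendritic cells is known to stimulate T cells.

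The family was present in all 3 cell types, with Nrp2, Sema4d and Plxna1 at high level in each, while other members differed in level between them. Of the 34 genes, 24 were called different in at least 1 of the 3 comparisons in the authors' deposited table, at adjusted p under 0.05 by DESeq2. Of the 34, 32 were tested in at least 1 comparison. Over all 21217 genes so tested, 51.2% were called in at least 1 comparison and 8.05% in all 3. Of the 24 members, 8 were called in all 3 comparisons, 12 in 2 and 4 in 1. The 10 genes with no call in that table were Plxna1, Plxnb1, Sema3b, Sema3f, Sema3g, Sema4g, Sema5b, Sema6b, Sema6c and Plxna4os2. The highest of the 3 means was in osteoclasts for 12 genes, in dendritic cells for 11 and in macrophages for 11. Osteoclasts were above both other cell types for Nrp2, Plxna4, Sema3c and Sema3d, and below both for Plxnc1, Sema4b, Sema4c, Sema6d and Plxna4os1. Dendritic cells were above both for Plxnd1, Sema4a, Sema4b, Sema4f, Sema6a and Sema6d, and below both for Nrp2, Plxna2, Plxna4, Plxnb2, Sema3c and Sema5a. Macrophages were above both for Nrp1, Plxna3, Plxnb3, Plxnc1 and Sema4c, and below both for Plxnd1 and Sema7a.

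Promoter sequences are shown for the 4 genes that, in at least 1 of the 3 comparisons, had the largest called rise or the largest called fall of the family. These are Sema7a, a membrane semaphorin nearly absent from macrophages, Sema4c, lowest in osteoclasts, Sema3c, high in osteoclasts, and Sema6d, high in dendritic cells. Sema4c and Sema6d have 2 RefSeq windows each, and for them the window nearest the annotated start of the gene is shown. The sequences are the 250 bases before that RefSeq start (GRCm38.p6), 5′ to 3′ on the strand of the gene, at chr9:57939862-57940111 (plus strand) for Sema7a, chr1:36558382-36558631 (minus strand) for Sema4c, chr5:17574566-17574815 (plus strand) for Sema3c and chr2:124089719-124089968 (plus strand) for Sema6d. Capitals mark letters that match TGANTCA (AP-1), GGAAAA (the NFAT core), GAGGAA (the PU.1 core) or CANGTG (an E-box) on either strand.
Sema7a: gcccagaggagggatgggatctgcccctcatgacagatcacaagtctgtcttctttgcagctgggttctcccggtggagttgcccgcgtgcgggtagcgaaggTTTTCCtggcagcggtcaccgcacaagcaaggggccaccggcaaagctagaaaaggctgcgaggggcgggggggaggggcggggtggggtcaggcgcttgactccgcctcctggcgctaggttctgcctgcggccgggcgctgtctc
Sema4c: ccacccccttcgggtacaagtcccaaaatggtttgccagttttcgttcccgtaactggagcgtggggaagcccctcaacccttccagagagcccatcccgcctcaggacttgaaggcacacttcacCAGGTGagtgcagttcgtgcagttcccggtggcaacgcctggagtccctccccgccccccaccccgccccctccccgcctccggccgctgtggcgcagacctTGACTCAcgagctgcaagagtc
Sema3c: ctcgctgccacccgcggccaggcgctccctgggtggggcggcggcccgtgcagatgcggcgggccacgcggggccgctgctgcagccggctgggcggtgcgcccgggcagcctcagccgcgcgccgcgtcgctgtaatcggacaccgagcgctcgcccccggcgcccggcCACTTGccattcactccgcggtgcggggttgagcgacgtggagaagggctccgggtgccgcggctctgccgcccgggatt
Sema6d: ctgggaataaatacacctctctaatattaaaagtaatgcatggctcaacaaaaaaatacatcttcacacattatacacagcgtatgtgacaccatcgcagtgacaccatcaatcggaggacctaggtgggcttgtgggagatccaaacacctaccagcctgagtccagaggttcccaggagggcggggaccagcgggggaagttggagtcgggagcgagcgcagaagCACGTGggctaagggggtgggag

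In the windows shown, Sema7a held 1 match, to GGAAAA on the opposite strand, and Sema3c and Sema6d held 1 match each, to CANGTG. Sema4c held CANGTG and, starting 22 bases before the start, TGANTCA. The other Sema6d window also held 1 match to CANGTG, and the other Sema4c window none to these 4 motifs. RefSeq windows existed for 26 of the 34 genes, 37 windows in all. TGANTCA was in 3 of these 37 windows and in 6.75% of the 32817 windows of all genes, GGAAAA in 4 and 20.4%, GAGGAA in 12 and 23.3%, CANGTG in 9 and 39.5%, and GGAAAN, the looser NFAT core, in 20 and 55.5%. GGAAAN contains GGAAAA and can overlap GAGGAA. A match describes the letters of the window and no binding was measured.

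The levels given here are the authors' deposited means, which are reads divided by a size factor of each library and averaged over the 4 libraries of a cell type. Over all genes these means summed to 2.42e+07 in osteoclasts, 2.77e+07 in dendritic cells and 2.50e+07 in macrophages. Where a mean was below 1000, its digits allowed the whole reads of the 4 libraries to be worked out, which gave reads per library for 75 of the 102 means of the family. These libraries are lettered a to d within a cell type by rising size factor; the letters do not pair libraries across cell types. Of 8 osteoclast markers, 8 were called higher in osteoclasts than in macrophages, 5 higher in osteoclasts than in dendritic cells and 6 higher in dendritic cells than in macrophages. All 8 dendritic markers were called higher in dendritic cells than in either other cell type. Of 8 macrophage markers, 7 were called lower in osteoclasts than in macrophages and 5 lower in dendritic cells than in macrophages. Dendritic cultures also carried neutrophil markers, 7 of 8 called higher in each comparison with another cell type. The summed means of that list were 77.6 in osteoclasts, 14582 in dendritic cells and 92.0 in macrophages. The mast cell and basophil list summed to 8.06 to 18 normalised reads in the 4 osteoclast libraries, 603 to 1144 in the dendritic libraries and 5.84 to 9.83 in the macrophage libraries. The B cell list had summed means of 68.1 in osteoclasts, 336 in dendritic cells and 940 in macrophages (314 to 1626 by macrophage library). In macrophages most of this was Ighm, at 577, 286, 1125 and 1574 normalised reads by library. The megakaryocyte and platelet list had summed means of 628, 3378 and 3380 in osteoclasts, dendritic cells and macrophages. In dendritic cells and macrophages most of this was Pf4, whose mean lay above 1000. The other 4 genes summed to 275 to 836 normalised reads by dendritic library. These genes summed to 40.3 to 76.7 normalised reads by macrophage library. The stromal and osteoblast list had summed means of 677 in osteoclasts (400 to 964 by library), 1085 in dendritic cells and 342 in macrophages. For the endothelial list they were 2560, 3788 and 2271. Of its 8 genes, the 7 with reads per library summed to 197 to 445, 364 to 1160 and 157 to 361 normalised reads in that order. The part of such cells in the results was not tested for any cell type. In bulk RNA, fewer cells of a type and less RNA per cell cannot be told apart.

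**Figure D1:**
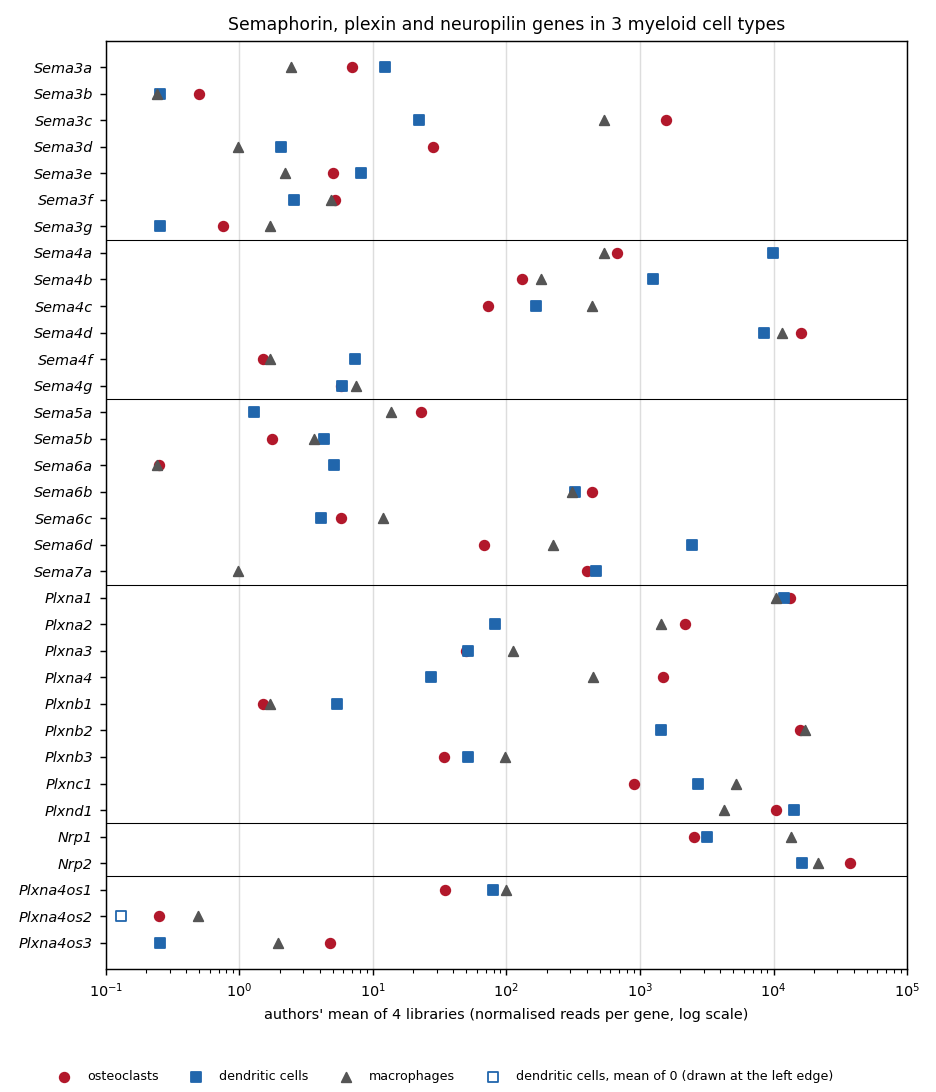
Authors' mean of 4 libraries for each of the 34 genes (normalised reads, log axis) in osteoclasts (circles), dendritic cells (squares) and macrophages (triangles), with lines between class 3, class 4 and class 5 to 7 semaphorins, plexins, neuropilins and antisense transcripts. Sema7a shows the widest gap of all, with means of 404 in osteoclasts, 469 in dendritic cells and 0.976 in macrophages, while Plxna1 lies between 10401 and 13328 in all 3.

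Levels of different genes were compared as RPKM worked out from the means, that is reads per kilobase of all exons merged, scaled to the summed means of the cell type, and few members were high. At least 1 RPKM was reached by 13 genes in osteoclasts, 14 in dendritic cells and 15 in macrophages. In osteoclasts the order was Nrp2 (129), Sema4d (86.3), Plxnb2 (83.7), Plxna1 (60.7) and Plxnd1 (58.7), and the next gene, Nrp1, stood at 10.7. In dendritic cells it was Plxnd1 (70.6), Sema4a (66.6), Nrp2 (50.0), Plxna1 (47.6) and Sema4d (39.8). In macrophages it was Plxnb2 (89.6), Nrp2 (73.2), Sema4d (60.7), Nrp1 (55.4) and Plxna1 (45.9). No spread between libraries can be given for these genes, whose means lie above 1000, so neighbours in these orders cannot be said to differ. The order within the 5 depends on the length used. Per kilobase of the longest transcript the same 5 genes led in each cell type, but Sema4a (112) came first in dendritic cells, ahead of Nrp2 (88.1) and Plxnd1 (74.7), and Nrp1 (149) came first in macrophages, ahead of Nrp2 (129), Plxnb2 (106) and Sema4d (104). Nrp2, Sema4d and Plxna1 were among the leading 5 in every cell type, whereas Sema4a was among them in dendritic cells and Nrp1 in macrophages.

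Summed by class, the plexins took 1817 CPM, worked out from the authors' means scaled to their sum over all genes, in osteoclasts, 1103 in dendritic cells and 1572 in macrophages. The 2 neuropilins took 1636, 707 and 1410 CPM in osteoclasts, dendritic cells and macrophages. Class 3 semaphorins took 66.3 CPM in osteoclasts, 1.72 in dendritic cells and 22.0 in macrophages, mostly Sema3c in osteoclasts and macrophages. Class 4 semaphorins were of a like total in the 3, at 700, 718 and 513 CPM in osteoclasts, dendritic cells and macrophages, but with Sema4d leading in osteoclasts and macrophages and Sema4a in dendritic cells.

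**Figure D2:**
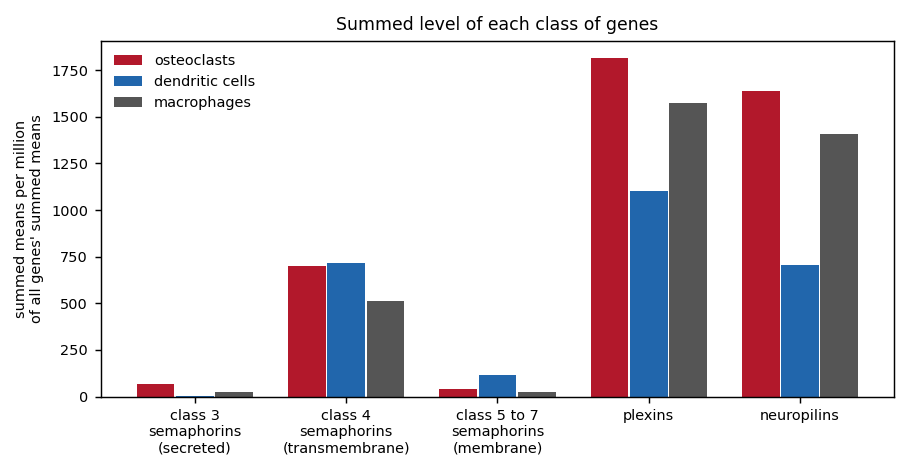
Bars from 0 give the summed authors' means of each class, scaled so that the summed means of all genes are the same in each cell type (CPM), in osteoclasts, dendritic cells and macrophages. The receptors make up most of the family's reads in every cell type, and the 1103 CPM of the plexins and 707 of the neuropilins in dendritic cells are the lowest of the 3 cell types.

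In osteoclasts against macrophages, 14 of 31 tested family members were called, 6 higher and 8 lower, in the authors' deposited table. Over all genes tested 29.3% were called, with 14.5% higher and 14.7% lower. At least 2-fold change was reached by 12 of the 14. The median log2 fold change of the tested members was 0.10, against -0.03 for all genes tested. Of the 21 tested members with reads per library in both cell types, 8 had libraries that did not overlap, where 24.6% of all such genes did not. The authors called 8 of these 21 and 24.1% of all such genes, and limma on reads per library called 8 and 18.7%.

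In osteoclasts against dendritic cells, 18 of 32 tested members were called, 9 higher and 9 lower, in the authors' deposited table, with a background of 36.9% called, 16.8% higher and 20.1% lower. Of these, 16 changed by at least 2-fold. The median log2 fold change of the members was -0.13 and of all genes -0.05. Libraries did not overlap for 5 of 19 tested members with reads, where 31.2% of all such genes did not. The authors called 7 of these 19 and 30.7% of all such genes, and limma called 8 and 30.2%. With the summed means of the 2 cell types made equal, the calls over all genes were 61.4% higher in osteoclasts, in place of 45.4% as deposited, since every log2 fold change moves by 0.19.

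In dendritic cells against macrophages, 20 of 32 tested members were called, 9 higher and 11 lower, in the authors' deposited table, and 36.7% of all genes were called, 20.3% higher and 16.4% lower. Of these, 17 changed by at least 2-fold. The median log2 fold change was -0.37 for the members and 0.05 for all genes. Libraries did not overlap for 10 of 21 tested members with reads, where 27.9% of all such genes did not. The authors called 11 of these 21 and 29.7% of all such genes, and limma called 10 and 25%. With equal summed means, 42.8% of the calls over all genes were higher in dendritic cells, in place of 55.4%, since every log2 fold change moves by -0.15.

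**Figure D3:**
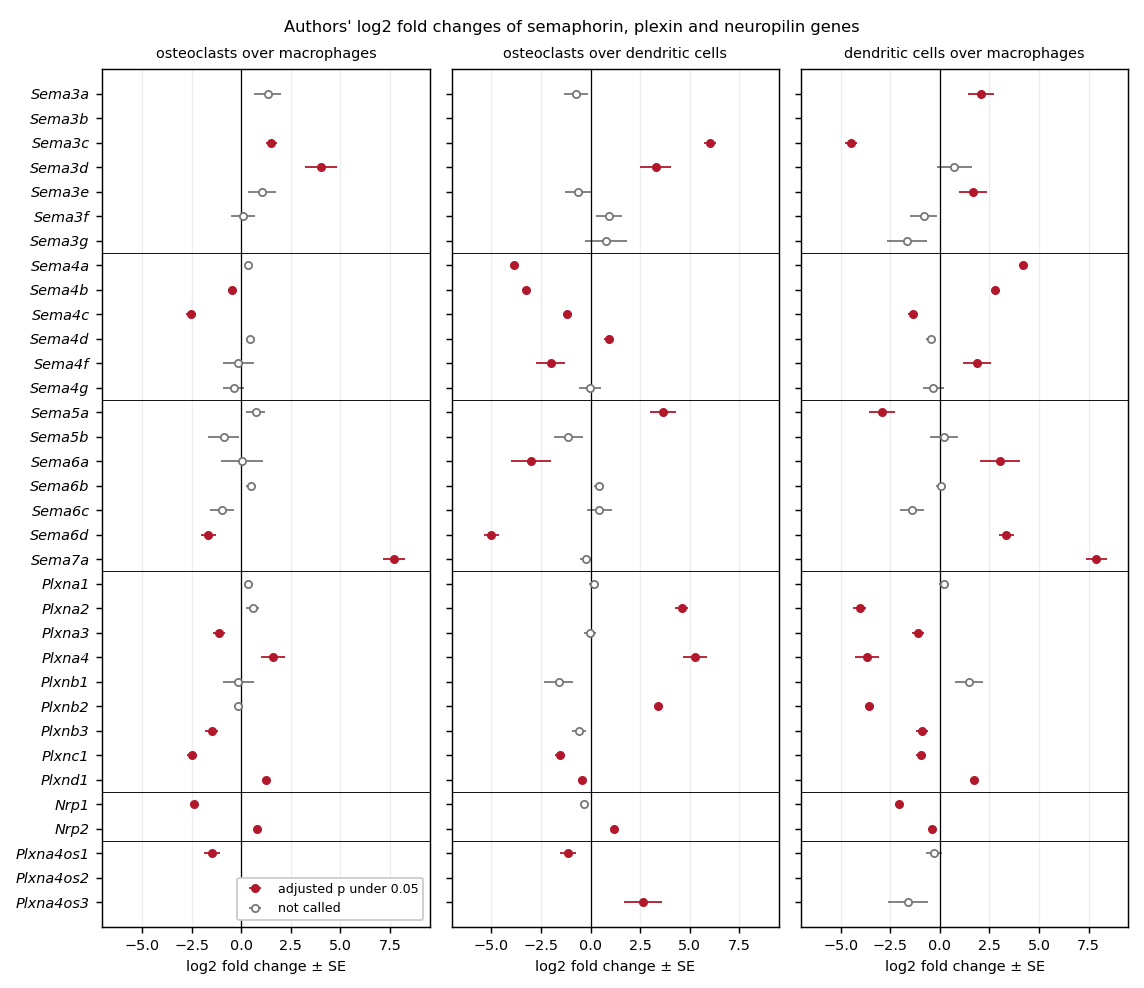
Authors' log2 fold change of each gene with its standard error (the error implied by the deposited p-value), in osteoclasts over macrophages, osteoclasts over dendritic cells and dendritic cells over macrophages; filled points have adjusted p under 0.05, and genes without an adjusted p have no point. Sema7a lies near 8 in both comparisons with macrophages and near 0 between osteoclasts and dendritic cells, and Sema3c reaches 6.00 in osteoclasts over dendritic cells.

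Among the secreted class 3 ligands, 2 set osteoclasts apart. Sema3c, which signals through neuropilins and Plxnd1, had a mean of 1561 in osteoclasts, 22.2 in dendritic cells and 538 in macrophages (the authors' deposited table). By library, Sema3c had 17, 27, 28 and 15 reads in dendritic cells, and 580, 863, 412 and 353 reads in macrophages. All 4 macrophage libraries thus lay far above all 4 dendritic libraries. The authors' deposited table gives Sema3c a log2 fold change of 6.00 ± 0.31 (SE, DESeq2 adjusted p = 2.42e-82) in osteoclasts over dendritic cells, 1.51 ± 0.27 (adjusted p = 5.54e-07) over macrophages, and -4.49 ± 0.31 (adjusted p = 5e-46) in dendritic cells over macrophages.

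Sema3d, a neuropilin ligand that acts with Plxnd1 in vessels, was at low level. It had 3, 23, 55 and 33 reads in the osteoclast libraries, 3, 1, 4 and 0 in the dendritic libraries and 2, 2, 0 and 0 in the macrophage libraries. Osteoclast library a was no higher than the highest dendritic library, while all 4 osteoclast libraries exceeded every macrophage library. Its mean was 28.4 ± 21.5 normalised reads in osteoclasts, 2.04 ± 1.86 in dendritic cells and 0.979 ± 1.13 in macrophages (SD, n = 4 each). The ratio of means of osteoclasts to macrophages was 29.0, with a 95% counting interval from 11 to 108, and 43.7 without macrophage library a. The deposited adjusted p values (DESeq2) were 1.09e-05 over macrophages and 0.000134 over dendritic cells. By limma on reads per library they were 0.0226 and 0.0151, and each limma call held in only 3 of the 8 fits without 1 library. Of the osteoclast libraries, a was the lowest for Sema3d, and it was also the lowest for Sema7a and the highest for Sema6d. Library a was also the highest for Sema4a and Sema6b and the lowest for Plxna4os1 and Sema5a. The gap to library d was small for Sema6b (503 against 495 normalised reads) and Sema5a (14.1 against 14.9). For Plxna3, Plxnb3, Plxnc1, Sema4b and Sema4c library a was neither, and whether it differs from the others over all genes was not tested.

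Sema3a, known to protect bone through Nrp1 and Plxna plexins, was barely present. It had 7 reads in each of the 4 osteoclast libraries, 5, 28, 10 and 5 in dendritic cells and 4, 4, 1 and 1 in macrophages. It was called higher in dendritic cells than in macrophages (log2 fold change 2.07 ± 0.66 in the authors' deposited table, DESeq2 adjusted p = 0.00609), a ratio of means of 5.02 that is 2.79 without dendritic library b. limma on reads per library did not call it there (adjusted p = 0.0596), and called it higher in osteoclasts than in macrophages (adjusted p = 0.0450), where the authors did not (DESeq2 adjusted p = 0.131). Sema3e, a direct ligand of Plxnd1, had 3, 6, 5 and 6 reads in osteoclasts, 3, 8, 3 and 18 in dendritic cells and 1, 4, 2 and 2 in macrophages. Its call in dendritic cells over macrophages (DESeq2 adjusted p = 0.0436) had a ratio of means of 3.73, or 2.18 without dendritic library d, and did not hold under either other scaling (adjusted p of 0.0676 and 0.0552) or by limma (adjusted p = 0.135). Sema3f, Sema3g and Sema3b had at most 9 reads in any library and no call in the authors' deposited table. limma called Sema3g lower in dendritic cells than in macrophages (adjusted p = 0.0382), on 1 read in all dendritic libraries and 7 in all macrophage libraries.

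Among the transmembrane class 4 ligands, Sema4a, Sema4b and, on few reads, Sema4f were called higher in dendritic cells than in both other cell types. Sema4a had 822, 644, 579 and 662 reads in the osteoclast libraries, a mean of 9979 in dendritic cells in the authors' table and 503, 525, 713 and 485 reads in the macrophage libraries. Its log2 fold change was -3.86 ± 0.15 in osteoclasts over dendritic cells and 4.18 ± 0.15 in dendritic cells over macrophages (DESeq2 adjusted p = 5.86e-143 and 2.1e-166 in the authors' deposited table). Osteoclast and macrophage libraries overlapped for Sema4a, and that difference was not called (0.32 ± 0.15, DESeq2 adjusted p = 0.104). Sema4b was also highest in dendritic cells. It had 125, 154, 122 and 126 reads in the osteoclast libraries, a mean of 1255 in dendritic cells in the authors' table and 166, 222, 146 and 216 reads in the macrophage libraries. It was lower in osteoclasts than in dendritic cells (-3.23 ± 0.17, DESeq2 adjusted p = 1.36e-77) and higher in dendritic cells than in macrophages (2.77 ± 0.17, adjusted p = 2.88e-59). The small difference between osteoclasts and macrophages (-0.47 ± 0.18, DESeq2 adjusted p = 0.0328) was not called with equal summed means (adjusted p = 0.0583) or by limma on reads per library (adjusted p = 0.0878).

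Sema4c, a ligand of Plxnb2, separated all 3 cell types. It had 77, 53, 68 and 94 reads in osteoclasts, 229, 168, 132 and 126 in dendritic cells and 501, 404, 439 and 452 in macrophages. No library of any cell type overlapped with those of another. The means were 72.9 ± 17.0, 167 ± 49.0 and 437 ± 41.0 normalised reads in osteoclasts, dendritic cells and macrophages (SD, n = 4 each). The deposited log2 fold change was -2.55 ± 0.22 in osteoclasts over macrophages (DESeq2 adjusted p = 2.9e-28), -1.18 ± 0.23 over dendritic cells (adjusted p = 1.22e-06) and -1.37 ± 0.21 in dendritic cells over macrophages (adjusted p = 1.31e-09). Exons of Sema4c share 334 bases with D430040D24Rik on the opposite strand, and because the strand setting of the counting is not given, their reads cannot be told apart there.

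Sema4d, the ligand known from osteoclasts, was at high level everywhere, with means of 16073 in osteoclasts, 8483 in dendritic cells and 11661 in macrophages (the authors' deposited table). Osteoclasts exceeded dendritic cells (log2 fold change 0.91 ± 0.22, DESeq2 adjusted p = 0.000237). Over macrophages the difference was 0.46 ± 0.22 (95% interval 0.02 to 0.90, adjusted p = 0.114 by DESeq2) and was not called. In dendritic cells over macrophages the deposited -0.45 ± 0.22 missed the threshold (DESeq2 adjusted p = 0.103) and passed it with equal summed means (adjusted p = 0.0211) and with upper-quartile scaling (adjusted p = 0.0486). Sema4f had at most 11 reads in a library, with 2, 1, 3 and 0 in osteoclasts, 11, 9, 3 and 6 in dendritic cells and 3, 1, 2 and 1 in macrophages. It was called higher in dendritic cells than in osteoclasts (DESeq2 adjusted p = 0.0190) and than in macrophages (adjusted p = 0.0279). limma called both as well, but in only 3 and 2 of the 8 fits without 1 library. Sema4g had 3 to 10 reads in every library and no call.

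In classes 5 to 7 the largest change of the family was that of Sema7a, a semaphorin anchored to the membrane by a lipid, which binds the integrin of Itga1 and Itgb1 as well as Plxnc1. It had 219, 636, 379 and 383 reads in osteoclasts, 620, 364, 468 and 387 in dendritic cells and 1, 1, 2 and 0 in macrophages. Osteoclasts and dendritic cells overlapped, and both lay far above every macrophage library. The ratio of means over macrophages was 413 for osteoclasts (95% counting interval 161 to 1519) and 481 for dendritic cells (187 to 1767). In the authors' deposited table the log2 fold change was 7.68 ± 0.55 in osteoclasts over macrophages (DESeq2 adjusted p = 2.31e-41) and 7.89 ± 0.55 in dendritic cells over macrophages (adjusted p = 1.36e-44). These are smaller than the log2 ratios of the same means, which were 8.69 and 8.91. Between osteoclasts and dendritic cells it was -0.21 ± 0.31, with a 95% interval from -0.81 to 0.39 (DESeq2 adjusted p = 0.649).

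Sema6d, a ligand of Plxna1, was highest in dendritic cells. It had 130, 56, 43 and 40 reads in osteoclasts, a mean of 2437 in dendritic cells in the authors' table and 197, 170, 152 and 398 reads in macrophages, so that the highest osteoclast library lay below the lowest macrophage library. The deposited log2 fold change was -5.00 ± 0.39 in osteoclasts over dendritic cells (DESeq2 adjusted p = 1.65e-36), 3.35 ± 0.38 in dendritic cells over macrophages (adjusted p = 3.17e-17) and -1.66 ± 0.39 in osteoclasts over macrophages (adjusted p = 0.000186). For Sema6d in osteoclasts over macrophages the limma call (adjusted p = 0.0267) held in only 3 of the 8 fits without 1 library. Sema5a was lowest in dendritic cells. It had 14, 28, 35 and 15 reads in osteoclasts, 1, 3, 0 and 1 in dendritic cells and 8, 19, 7 and 22 in macrophages, and the dendritic libraries did not overlap with either. Its ratio of means of osteoclasts to dendritic cells was 18 (95% counting interval 7.43 to 56.7) and 33.7 without dendritic library b. The macrophage mean was 10.6 times the dendritic one, or 19.9 times without that library.

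Sema6a had 1 read in all osteoclast libraries together, 10, 3, 6 and 1 reads in the dendritic libraries and 1 read in all macrophage libraries together. The ratio of means of dendritic cells to macrophages was 21 (95% counting interval 3.36 to 870), and the dendritic mean was 20.6 times that of osteoclasts (3.29 to 853); without dendritic library a the ratios were 13.9 and 13.7. Without macrophage library b the macrophage mean of Sema6a was 0, and without osteoclast library c the osteoclast mean was 0. Sema6b, a ligand of Plxna4, had 499, 373, 378 and 498 reads in osteoclasts, 375, 273, 185 and 435 in dendritic cells and 337, 292, 406 and 233 in macrophages. Its libraries overlapped in all 3 comparisons and none was called, although osteoclasts over dendritic cells passed the threshold with equal summed means (adjusted p = 0.0409). Sema5b had at most 7 reads in a library and Sema6c at most 17. Neither was called, though Sema6c in dendritic cells over macrophages (DESeq2 adjusted p = 0.0582) passed with both other scalings (adjusted p of 0.0311 and 0.0429).

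**Figure D4:**
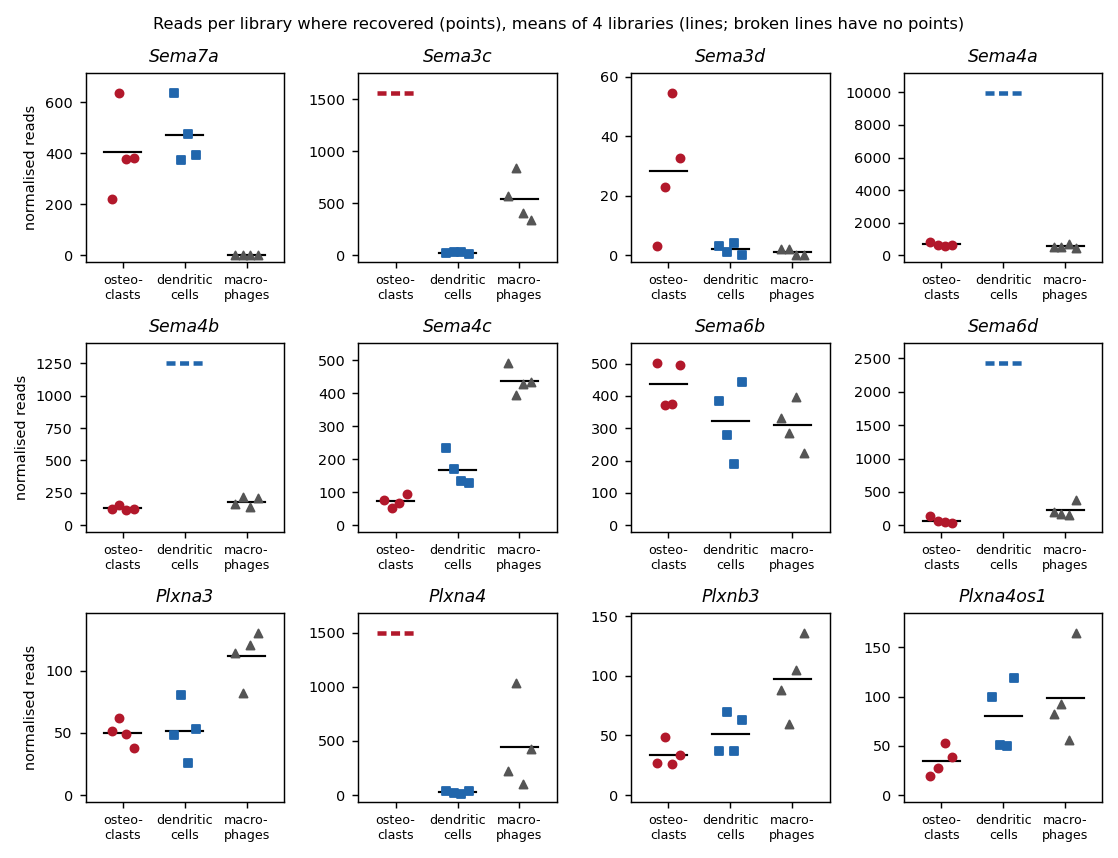
Normalised reads of 12 genes in each of the 4 libraries of osteoclasts (circles), dendritic cells (squares) and macrophages (triangles), with the mean as a line; broken lines are means with no recovered libraries, and each panel has its own axis from 0. The Sema4c libraries are separate in all 3 cell types, the Sema7a libraries of macrophages lie at 0 to 2 reads, and Plxna4 in macrophages spreads widely around its mean of 447.

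Among the receptors, Plxna1 was at high level in all 3 cell types. Its means were 13328 in osteoclasts, 11947 in dendritic cells and 10401 in macrophages (the authors' deposited table), and no comparison was called. The 95% interval of its log2 fold change ran from -0.10 to 0.81 in osteoclasts over macrophages, from -0.30 to 0.61 over dendritic cells and from -0.26 to 0.65 in dendritic cells over macrophages. Plxna1 shares 970 exon bases with Gm26811 on the opposite strand.

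Plxna2, Plxna4 and Plxnb2 were lowest in dendritic cells. Plxna2, a receptor of class 3 ligands with neuropilins and of Sema6a directly, had a mean of 2155 in osteoclasts in the authors' table, 67, 90, 80 and 83 reads in the dendritic libraries and a mean of 1438 in macrophages. The authors' deposited table gives it 4.61 ± 0.33 in osteoclasts over dendritic cells (DESeq2 adjusted p = 1.23e-42) and -4.04 ± 0.33 in dendritic cells over macrophages (adjusted p = 6.92e-33). Plxnb2, the receptor of Sema4c, had means of 15667 in osteoclasts, 1435 in dendritic cells and 17302 in macrophages (the authors' deposited table). Its log2 fold change was 3.41 ± 0.21 in osteoclasts over dendritic cells (DESeq2 adjusted p = 6.52e-57) and -3.56 ± 0.21 in dendritic cells over macrophages (adjusted p = 1.03e-61). Neither Plxna2 (0.57 ± 0.32) nor Plxnb2 (-0.14 ± 0.21) was called between osteoclasts and macrophages.

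Plxna4 had a mean of 1500 in osteoclasts in the authors' deposited table, 34, 17, 15 and 40 reads in the dendritic libraries, and 229, 1060, 108 and 445 reads in the macrophage libraries. Every macrophage library lay above every dendritic one, but the macrophage libraries themselves spread widely, with b and d high. Libraries b and d both lay above a and c for 21.3% of the 9460 genes with reads per library that had at least 20 macrophage reads. Of such genes on the cell type marker lists, 5 of 31 (16.1%) had this order (Dcstamp, H2-Ab1, Runx2, Cxcl12 and Gp1ba). The deposited log2 fold change of Plxna4 was 5.27 ± 0.61 in osteoclasts over dendritic cells (DESeq2 adjusted p = 6.43e-17), 1.61 ± 0.60 over macrophages (adjusted p = 0.0276) and -3.66 ± 0.61 in dendritic cells over macrophages (adjusted p = 1.41e-08). The macrophage mean was 16.5 times the dendritic one, and 9.33 times without macrophage library b.

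Plxnd1, the receptor of Sema3e and of Sema4a, was highest in dendritic cells, with means of 10397 in osteoclasts, 14299 in dendritic cells and 4288 in macrophages (the authors' deposited table). It was higher than in macrophages in osteoclasts (1.27 ± 0.19, DESeq2 adjusted p = 2.36e-10) and in dendritic cells (1.72 ± 0.19, adjusted p = 2.46e-19). Its lower level in osteoclasts than in dendritic cells (-0.46 ± 0.18, DESeq2 adjusted p = 0.0384) did not pass with equal summed means (adjusted p = 0.271) or upper-quartile scaling (adjusted p = 0.0671). Plxnc1, the plexin that binds Sema7a, had 987, 659, 1044 and 944 reads in osteoclasts and means of 2703 in dendritic cells and 5237 in macrophages. The deposited log2 fold change was -2.49 ± 0.26 in osteoclasts over macrophages (DESeq2 adjusted p = 3.92e-20), -1.55 ± 0.26 over dendritic cells (adjusted p = 1.5e-08) and -0.94 ± 0.26 in dendritic cells over macrophages (adjusted p = 0.00106). Plxnc1 shares 115 exon bases with Gm48718 on the same strand. Sema7a and Plxnc1 had opposite extremes in macrophages, the ligand lowest and this receptor highest.

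Plxna3 and Plxnb3 were at low level and highest in macrophages. Plxna3 had 51, 62, 49 and 38 reads in osteoclasts, 47, 79, 25 and 52 in dendritic cells and 116, 84, 124 and 136 in macrophages, and no macrophage library overlapped with the others. Plxnb3, a receptor of Sema5a, had 27, 49, 26 and 34 reads in osteoclasts, 36, 68, 36 and 62 in dendritic cells and 90, 61, 108 and 142 in macrophages. The lowest macrophage library of Plxnb3 fell within the dendritic range but above all osteoclast libraries. Both were called lower in osteoclasts and in dendritic cells than in macrophages, with log2 fold changes from -0.90 to -1.48 in the authors' deposited table. Plxnb3 in dendritic cells was not called by limma on reads per library (adjusted p = 0.0645). Plxnb1, the high-affinity receptor of Sema4d, had at most 7 reads in any library and no deposited call, but limma called it higher in dendritic cells than in osteoclasts and macrophages (adjusted p of 0.0447 and 0.0379). Plxnb1 shares 257 exon bases with Gm7628 on the opposite strand.

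The neuropilins went different ways. Nrp1, co-receptor of Sema3a and of VEGF, had means of 2541 in osteoclasts, 3171 in dendritic cells and 13574 in macrophages (the authors' deposited table). It was lower than in macrophages in osteoclasts (-2.40 ± 0.20, DESeq2 adjusted p = 1.37e-31) and in dendritic cells (-2.08 ± 0.20, adjusted p = 1.23e-24). Nrp2, which binds Sema3f and VEGF-C, had means of 37129 in osteoclasts, 16430 in dendritic cells and 21696 in macrophages. It was higher in osteoclasts than in macrophages (0.77 ± 0.15, DESeq2 adjusted p = 3.36e-06) and than in dendritic cells (1.17 ± 0.15, adjusted p = 6.2e-14), and lower in dendritic cells than in macrophages (-0.40 ± 0.15, adjusted p = 0.0227), in the authors' deposited table. The ratio of the Nrp2 mean to that of macrophages was 1.71 in osteoclasts and 0.757 in dendritic cells.

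The antisense transcripts lie within Plxna4 on the other strand of chromosome 6. Plxna4os1 had 19, 28, 53 and 39 reads in osteoclasts, 97, 50, 49 and 117 in dendritic cells and 84, 95, 57 and 172 in macrophages. It was called lower in osteoclasts than in macrophages (-1.46 ± 0.40, DESeq2 adjusted p = 0.0017), where the libraries did not overlap, and than in dendritic cells (-1.16 ± 0.40, adjusted p = 0.0126), where they did. Both were also called by limma (adjusted p of 0.0391 and 0.0374), but in only 2 and 3 of the 8 fits without 1 library. Plxna4 itself was highest in osteoclasts. Plxna4os1 shares no exon base with Plxna4 in the annotation used. Plxna4os3 had 4, 1, 5 and 9 reads in osteoclasts, 1, 0, 0 and 0 in dendritic cells and 0, 5, 0 and 3 in macrophages, and shares 110 exon bases with Plxna4, so reads of the 2 cannot be told apart there. Its ratio of means of osteoclasts to dendritic cells was 18.5, with a 95% counting interval from 2.94 to 767, and without dendritic library a its dendritic mean was 0. Plxna4os2 had 1 read in all osteoclast libraries, 0 in the dendritic ones and 2 in macrophages.

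Of 22 co-receptors and other semaphorin receptors, the authors called 4 higher and 4 lower among 20 tested in osteoclasts over macrophages, 11 and 7 among 22 in osteoclasts over dendritic cells, and 6 and 9 among 21 in dendritic cells over macrophages. Over all genes tested, 29.3%, 36.9% and 36.7% were called in these 3 comparisons, and the counts of the other lists can be read against the same shares. Mst1r, a receptor tyrosine kinase that pairs with B plexins, had means of 974 in osteoclasts, 2.04 in dendritic cells and 2.21 in macrophages (the authors' deposited table). Met, another such partner, was higher in dendritic cells than in macrophages, with means of 3521 and 108. Sdc1 had means of 11073 in osteoclasts and 1166 in macrophages. Itga1, the integrin chain that binds Sema7a, had means of 11.8 in osteoclasts, 1886 in dendritic cells and 11.7 in macrophages. Cd72, a receptor of Sema4d on immune cells, had means of 7900, 961 and 10633 in osteoclasts, dendritic cells and macrophages in the authors' deposited table. Trem2, the partner of Plxna1, had means of 12125 in osteoclasts, 5169 in dendritic cells and 20848 in macrophages. Havcr1, of the TIM receptor family, was at 0 in osteoclasts and macrophages and had a mean of 16.3 in dendritic cells.

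Of 7 VEGF family and other ligands of neuropilins, 2 were higher and 1 lower in osteoclasts over macrophages, 1 and 3 in osteoclasts over dendritic cells, and 3 and 2 in dendritic cells over macrophages. Vegfc, the Nrp2 ligand of lymphatic growth, had means of 1510 in osteoclasts, 3.58 in dendritic cells and 42.1 in macrophages (the authors' deposited table). Its log2 fold change was 8.24 ± 0.48 in osteoclasts over dendritic cells (DESeq2 adjusted p = 1.29e-63) and 5.01 ± 0.38 over macrophages (adjusted p = 7.58e-37). Pgf, a ligand of Flt1 and neuropilins, had means of 178 in osteoclasts, 344 in dendritic cells and 3.42 in macrophages. Vegfa had means of 638 in osteoclasts, 5029 in dendritic cells and 1078 in macrophages. Hgf was lower in osteoclasts than in macrophages, with means of 176 and 419, Tgfb1 was lower in osteoclasts than in dendritic cells, with 6080 and 10177, and Vegfb was lower in dendritic cells than in macrophages, with 360 and 541.

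Of 49 genes of signalling downstream of plexins, 7 were higher and 11 lower among 46 tested in osteoclasts over macrophages, 14 and 12 among 47 in osteoclasts over dendritic cells, and 10 and 16 among 47 in dendritic cells over macrophages, where 29.3%, 36.9% and 36.7% of all genes were called. Their median log2 fold changes were -0.06, 0.06 and -0.10 in that order, against -0.03, -0.05 and 0.05 for all genes. Rnd1, a small GTPase that binds plexins, had means of 237 in osteoclasts and 58.4 in macrophages (the authors' deposited table), and Rhod, another, 60.8 and 242. The Ras family GTPases Rras2 and Mras were highest in dendritic cells, Rras2 with means of 144 in osteoclasts, 1942 in dendritic cells and 67.0 in macrophages and Mras with 303, 2170 and 153. The tyrosine kinase Fer was lowest in them, with means of 1024 in osteoclasts, 197 in dendritic cells and 1009 in macrophages. Micall1 was higher in osteoclasts than in macrophages (means of 2069 and 946), Arhgap35 higher in osteoclasts than in dendritic cells (861 and 480) and Ptk2b lower in dendritic cells than in macrophages (4247 and 11112).

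Of 9 sheddases and convertases, the proteases that cut or activate semaphorins, 2 were higher and 1 lower among 7 tested in osteoclasts over macrophages, 2 and 2 among 9 in osteoclasts over dendritic cells, and 2 and 3 among 8 in dendritic cells over macrophages. Mmp14, a membrane protease known to shed Sema4d, had means of 2429 in osteoclasts, 7444 in dendritic cells and 232 in macrophages (the authors' deposited table). Furin, which processes class 3 semaphorins, had means of 3339 in osteoclasts, 6666 in dendritic cells and 3321 in macrophages. Adam17 was lowest in dendritic cells, with means of 10158 in osteoclasts, 7031 in dendritic cells and 9623 in macrophages. Adamts4 had means of 32.7 in osteoclasts, 3.83 in dendritic cells and 2.92 in macrophages, Adam8 was lower in osteoclasts (36636) than in macrophages (60972), and Adam10 lower in dendritic cells (7012) than in macrophages (10254).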

How the data were processed

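The mRNA libraries came from a strand-keeping kit, per the labels' protocols, and were sequenced in 1 lane as single 50-base reads, per the series' design text. The submitters' processing notes name DESeq2 2.13, Cufflinks 2.1.1, TopHat2, Bowtie2 and bcl2fastq, and the GRCm38 build. Not given in the sources used here are what each tool did, the annotation, and whether counting used strand. The deposited table holds, per the file headers, the authors' mean of each cell type, log2 fold change, p-value and adjusted p-value of each pair of cell types. The means are counts per gene divided by size factors and averaged by the authors over 4 libraries, as the values themselves show. Dendritic cells over macrophages was deposited the other way round, and its sign was turned. Each SE was derived from the deposited p-value and fold change on the assumption of a two-sided Wald test. Deposited log2 fold changes of the members were smaller in size than the log2 ratios of the same means, most of all at few reads. For Sema6a in osteoclasts over dendritic cells they were -3.00 and -4.36. The gap exceeded the SE in 8 tested comparisons of a member and did not in 87.

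Whole reads per library were worked out from means below 1000, printed to 15 digits, as the single set of 4 whole numbers that gives the mean within its rounding. This gave 100% of such genes in osteoclasts, 99.99% in dendritic cells and 99.89% in macrophages. Size factors ran from 0.975 to 1.04. The recovery of reads and the limma fit were tried on simulated data. The simulated reads used the size factors worked out here, so the size factors themselves were not tested. The simulation for limma gave all genes the same spread. Calls are the authors' own, because the table has no counts per library. limma 3.58.1 (R 4.3.3, trend) on log2(normalised reads + 1) served as an alternative, with leaving out each library in turn, the scaling of the cell types, the filter on low values and the threshold. Counting intervals are exact at 95% and cover counting error only. Symbols matched 45138 identifiers, and 934 had none. Coordinates, exon lengths and overlaps are from GENCODE M21 (GRCm38), and the authors may have used another annotation. The family members and gene lists were chosen with earlier results of these data known. All members are accounted for. Of each pathway list and comparison, the genes named are the 2 with the smallest deposited p in each direction, except 1 that is not reported here.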

Additional observations from a re-analysis of the deposited data

Results flagged for a closer look

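In 46 pairs of a family member and a cell type with at least 20 reads over its 4 libraries, a library far from the other 3 was looked for, and 2 were found, where chance gives about 1 in 20. Sema4b in osteoclast library b stood at 154 normalised reads, with the other 3 libraries at 122 to 126 reads. Sema4g in macrophage library b stood at 3.90 normalised reads, with 9 reads in each of the other 3 libraries.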

How the results depend on the processing

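Counts of called family members kept within 1.5 times the deposited count under every adjustment, filter, threshold and scaling tried: 12 to 14 in osteoclasts over macrophages, 14 to 18 in osteoclasts over dendritic cells and 15 to 21 in dendritic cells over macrophages. Directions turned only for uncalled genes. With equal summed means, Plxna3 and Sema4g in osteoclasts over dendritic cells became 0.14 and 0.16, and Sema6b in dendritic cells over macrophages -0.081. With upper-quartile scaling, Sema6a in osteoclasts over macrophages became -0.0085, Sema4g in osteoclasts over dendritic cells 0.017 and Sema6b in dendritic cells over macrophages -0.0084. By limma, Sema3f in osteoclasts over macrophages became -0.017 and Plxna3 in osteoclasts over dendritic cells 0.038.

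The limma fits were chosen after seeing the data. Among members with reads per library, limma called 8 in osteoclasts over macrophages, 8 in osteoclasts over dendritic cells and 10 in dendritic cells over macrophages, where the authors called 8, 7 and 11. Without 1 library at a time, limma called 4 to 8, 4 to 7 and 5 to 8, with fewer samples in each fit. Of its calls, 4, 4 and 5 held without every library, and every one kept its direction. edgeR, DESeq2 and a replicate block were planned and not run, since the table has no counts per library. No paired analysis was possible because the recovered libraries carry no replicate numbers, although the labels give each experiment's 3 cell types 1 mouse. Genes with under 10 reads per library have wide counting intervals, and genes with means of at least 1000 have no spread between libraries here.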
